A study of Mus musculus with 6 samples.

Results

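Rab proteins form a large family of small GTPases that direct membrane traffic inside cells, and their genes were followed here in mouse dorsal root ganglia, which hold the cell bodies of the sensory neurons of the body wall and limbs. The Rab genes were taken by symbol: every protein-coding gene named Rab, a number and at most a letter and a further digit, which leaves out Rab effectors and regulators. The rule found 59 genes among the 54532 genes of the count table, of which 22046 are protein-coding. Bulk RNA-seq libraries came from ganglia of Ash1l+/- mice (3 libraries) and of wild-type (WT) littermates (3 libraries), and Ash1l encodes a histone methyltransferase. No treatment was named for either group, and the structure of the Ash1l allele, the age and the sex of the animals and the number of animals behind a library are not given by the labels. The p-values below therefore measure only the spread between these libraries, which may be technical. The study's title places the libraries in work on neuronal Ash1L, psoriasis and the release of a let-7 microRNA from active neurons.

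A Rab protein switches between a GTP-bound form, which sits on a membrane and recruits effectors, and a GDP-bound form, which is drawn off the membrane by GDP dissociation inhibitors. Exchange factors load GTP, GTPase-activating proteins trigger its hydrolysis, and a prenyl lipid added by Rab geranylgeranyl transferase with an escort protein anchors the Rab to the membrane. Each compartment carries its own Rabs, and in sensory neurons, whose axons run from the skin to the spinal cord, they serve synaptic and dense-core vesicle release, long-range endosome transport and exosome secretion.

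Total gene counts ranged from 17209294 to 20545722 per library. WT replicate 2 stood apart: across genes, its log2 CPM (counts scaled to library size) had an r of 0.846 to 0.877 with the remaining libraries, and the lowest r among those 5 was 0.981. The comparison is therefore given with 6 libraries and with the 5 libraries other than WT replicate 2. Ash1l itself was at 30.9 to 60.9 CPM in the libraries labelled WT and at 66.5 to 68.9 CPM in those labelled Ash1l+/-, so its counts do not check the labels, and every direction below rests on them. The 10 sensory neuron markers were all detected in every library, with a summed level of 14377.8 CPM in WT replicate 2 and 10793.6 to 11221.5 CPM in the others. Satellite glia markers (6 of 6 detected in every library) summed to 11944.9 CPM in WT replicate 2 and 3305 to 4020 CPM in the others. Erythrocyte markers (5 of 5) summed to 627.5 CPM there and 31.4 to 101.3 CPM elsewhere, and skeletal muscle markers (3 of 8 detected in every library) to 35.6 CPM there and 2.17 to 3.53 CPM elsewhere.

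Several Rabs exist as close paralogues, and 4 pairs are shown here as examples. In each, at least 1 gene differed between the genotypes in the 5 libraries. Other pairs, such as Rab27b and Rab27a, also met this and are not shown. The 2 genes of a pair are told apart in sequencing by their differing bases. Between the coding transcripts taken, no 50-base stretch was shared within these pairs. Each stretch is 54 coding bases around the codons for the conserved Asp-Thr-Ala-Gly residues of the GTP-binding switch region, read 5′ to 3′ from the coding transcripts of the GENCODE annotation of GRCm38, and capitals mark the bases that differ within the pair.
Rab1a: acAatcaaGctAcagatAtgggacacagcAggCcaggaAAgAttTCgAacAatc
Rab1b: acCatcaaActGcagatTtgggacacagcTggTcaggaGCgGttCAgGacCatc
Rab11a: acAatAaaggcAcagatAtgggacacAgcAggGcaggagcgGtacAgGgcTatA
Rab11b: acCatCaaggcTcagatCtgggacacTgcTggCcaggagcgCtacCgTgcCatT
Rab3a: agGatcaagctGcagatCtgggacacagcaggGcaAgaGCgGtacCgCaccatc
Rab3c: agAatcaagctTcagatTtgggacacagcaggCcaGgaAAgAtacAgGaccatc
Rab5a: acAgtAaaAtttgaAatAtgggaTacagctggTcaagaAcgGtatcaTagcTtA
Rab5c: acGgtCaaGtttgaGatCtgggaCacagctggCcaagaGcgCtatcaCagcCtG
In all 4 pairs the stretches encode the same 18 residues. They differ at 13 bases between Rab1a and Rab1b, of which 11 are last positions of a codon, at 12 bases in the Rab11 pair and in the Rab5 pair (11 at last positions in each), and at 10 bases between Rab3a and Rab3c (8 at last positions). These positions differ in base composition: G or C ends 13 of 18 codons in Rab1b against 8 in Rab1a, 13 in Rab11b against 10 in Rab11a, 15 in Rab3a against 11 in Rab3c, and 13 in Rab5c against 3 in Rab5a. The genes of each pair lie on different chromosomes. On GRCm38, Rab1a is at chr11:20201432-20226856 and Rab5c at chr11:100715009-100738215, and Rab5a is at chr17:53479234-53507680 and Rab11b at chr17:33742484-33760530. Rab1b is at chr19:5099207-5106996, Rab11a at chr9:64715299-64737758, Rab3a at chr8:70754679-70758677 and Rab3c at chr13:110054187-110280996.

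Most Rab genes were expressed in the ganglia. Of the 59, 53 had enough counts to be tested, and Rab17, Rab19, Rab25, Rab26, Rab42 and Rab44 did not. Rab17, Rab19 and Rab25 had fewer than 10 counts over all libraries, and Rab17 and Rab25 are known chiefly from epithelial recycling endosomes. Levels between genes are given as CPM per kb of gene length, as mean ± SD over the 5 libraries (n = 5). Rab6b, the neuronal form of a Rab that drives retrograde Golgi transport, stood highest at 276 ± 9.60, followed by Rab3a, the main Rab of synaptic vesicles, at 192 ± 15.9. Rab6a, the widespread Rab6 form, was at 151 ± 11.35, Rab2a, which acts between endoplasmic reticulum and Golgi, at 139 ± 6.46, and Rab7, the late endosome and lysosome Rab that also carries neurotrophin signals along axons, at 127 ± 5.31. Rab1b was at 95.5 ± 14.9, Rab11a, of recycling endosomes, at 72.3 ± 2.40, Rab1a, which with Rab1b serves transport from endoplasmic reticulum to Golgi, at 66.3 ± 5.65, and Rab18, a Rab of lipid droplets and endoplasmic reticulum, at 65.5 ± 5.75. Rab6a and Rab2a, Rab11a and Rab1a, and Rab1a and Rab18, neighbours in this order, differed by less than the sum of their SDs.

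The tenth place depended on WT replicate 2. Over the 6 libraries it was held by Rab5c (58.2), an early endosome Rab, and over the 5 libraries by its paralogue Rab5b (59.5 ± 2.96), with Rab5c at 52.1 ± 3.98. The 10 genes highest over 6 libraries together held 66.9% to 69.6% of the summed Rab level per kb in every library. Rabs of the endoplasmic reticulum and Golgi (16 genes) made up 46.5% to 47.8% of that sum in the 5 libraries and 37.9% in WT replicate 2. Regulated exocytosis Rabs (8 genes) made up 15.5% to 16.5% in the 5 libraries and 23.5% in WT replicate 2, recycling endosome Rabs (9 genes) 12.1% to 12.9% and 14.8%, early endosome Rabs (7 genes) 9.79% to 10.4% and 7.25%, and late endosome, lysosome and autophagy Rabs (6 genes) 9.21% to 9.61% and 12.2%. The summed level over all 59 genes was 1779 to 1904 in the 5 libraries and 2235 in WT replicate 2.

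**Figure D1:**
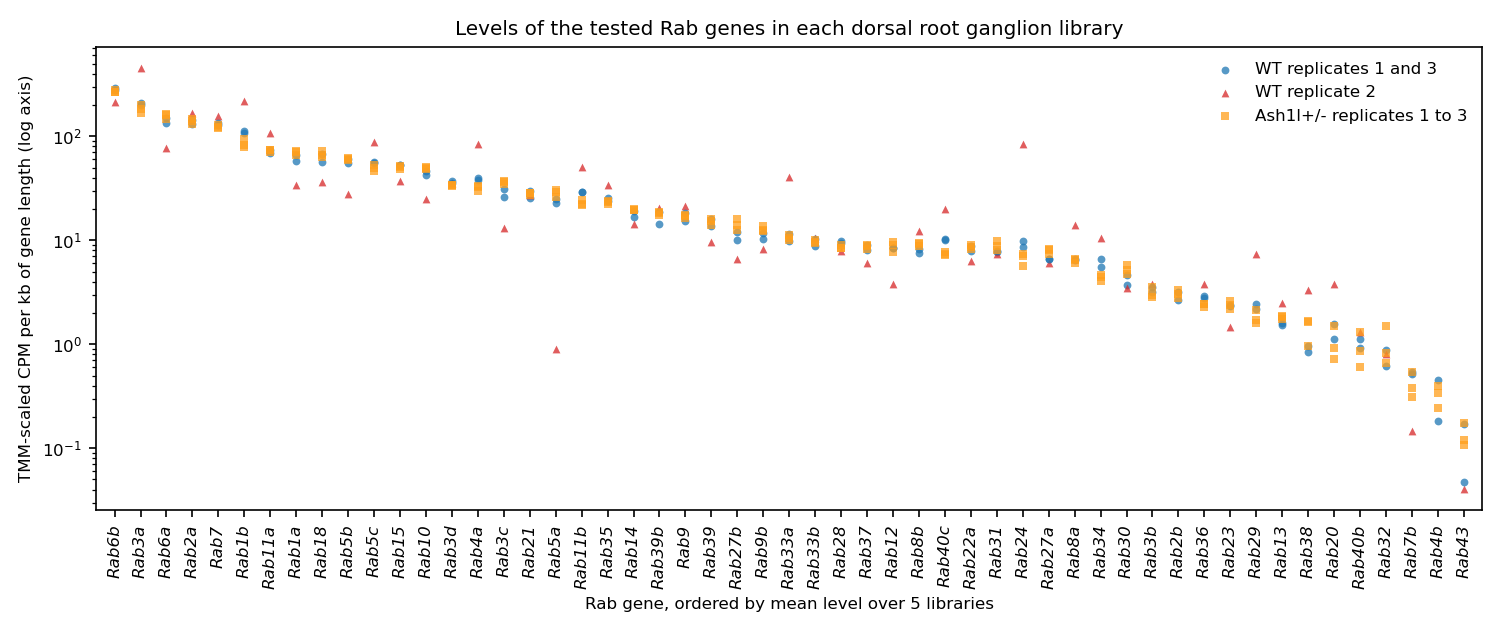
TMM-scaled CPM per kb of gene length (log axis) of the 53 tested Rab genes in each library, ordered by their mean over the 5 libraries. WT replicates 1 and 3 (circles) and Ash1l+/- replicates (squares) lie close together for most genes while WT replicate 2 (triangles) departs from them, furthest for Rab5a and Rab24, and its values of 0 for Rab2b and Rab4b are not drawn.

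With 6 libraries, no Rab gene passed the test: 0 of 53 had an adjusted p under 0.05 by edgeR's quasi-likelihood test, and the background was 0% of the 16032 genes tested. At an unadjusted p under 0.05 there were 5 Rab genes, Rab34, Rab40c, Rab11b, Rab1b and Rab24, all lower in Ash1l+/-, beside 1702 of all genes. DESeq2 called 0 Rab genes and 35 of all genes, limma-voom called 0 Rab genes, and limma-voom with library quality weights called 10 Rab genes and 4179 of all genes. The groups did not overlap for 19 of the 53 Rab genes, beside 38.5% of all genes tested, so this share was close to the background. WT replicate 2 lay outside the range of the other 5 libraries for 50 of the 53, beside 85.2% of all genes, and over 2-fold from their mean for 20 (12 higher, 8 lower), beside 45.5% of all genes.

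Without WT replicate 2, 10 of the 53 Rab genes passed (adjusted p under 0.05, edgeR's quasi-likelihood test). Rab3c, Rab27b, Rab5a and Rab30 were higher in Ash1l+/- and Rab1b, Rab34, Rab24, Rab40c, Rab4a and Rab11b were lower, with changes of 0.28 to 0.35 and of -0.47 to -0.28 on the log2 scale. The background in the same comparison was 19.8% of 16395 genes, with 9.39% higher and 10.4% lower, so the share of Rab genes called was close to that of all genes. The count was 2 when WT replicate 1 was left out as well, beside 796 of 17037 genes, and 6 when Ash1l+/- replicate 2 was, beside 1855 of 16226. The median log2 fold change of the Rab genes was 0.02 in both comparisons, beside 0 for all genes in the 6 libraries and 0.00 in the 5, and with 6 libraries it ran from -0.14 (trends on base composition and length removed) to 0.16 (library totals) under the alternatives. In bulk tissue, fewer cells of a type and less RNA per cell cannot be told apart. In the 5 libraries, total counts and the summed markers of sensory neurons, satellite glia, endothelium (98.5 to 118.6 CPM) and neutrophils (7.10 to 27.2 CPM) overlapped between the groups. Those of Schwann cells (6 of 6 detected in every library) were at 4660 to 4829 CPM in WT replicates 1 and 3 and at 3839 to 4555 CPM in Ash1l+/-. Fibroblast markers (5 of 5) were at 638.4 to 673.9 against 536.9 to 598.4 CPM, macrophage markers (6 of 6) at 34.1 to 34.9 against 29.7 to 30.6 CPM, skeletal muscle markers (3 of 8) at 2.37 to 3.53 against 2.17 to 2.31 CPM, and central nervous system markers (3 of 6, with Neurod6 at 0 in all libraries) at 244.2 to 261.4 against 196.0 to 239.9 CPM. The part of these markers in the Rab results was not tested.

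The regulated exocytosis Rabs, which bring synaptic, dense-core and secretory vesicles to the plasma membrane, held 2 of the 4 higher genes and none of the lower ones, over 7 tested. For this and the role groups below, the background in the 5 libraries was 9.39% of all genes higher and 10.4% lower. Rab3c, a synaptic vesicle Rab, was at 311.5, 157.0 and 372.9 CPM in WT replicates 1, 2 and 3 and at 418.8, 448.8 and 436.5 CPM in Ash1l+/- replicates 1, 2 and 3. All 3 Ash1l+/- libraries lay above all 3 WT libraries, and WT replicate 2 was the lowest. Its log2 fold change was 0.63 (SE 0.32, adjusted p = 0.386, edgeR's quasi-likelihood test) with 6 libraries and 0.35 (SE 0.08, adjusted p = 0.00555) with 5. Rab27b, which with Rab27a docks secretory granules and multivesicular bodies that release exosomes, was at 108.0, 71.0 and 129.7 CPM in the WT and at 135.0, 170.0 and 149.6 CPM in the Ash1l+/- libraries. The groups did not overlap, although WT replicate 3 and Ash1l+/- replicate 1 lay close together. On the log2 scale the change came to 0.56 (SE 0.25, adjusted p = 0.385) with 6 libraries and 0.35 (SE 0.10, adjusted p = 0.0134, edgeR's quasi-likelihood test) with 5.

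The other exocytosis Rabs did not pass in either comparison. Rab27a was at 25.7, 23.4 and 25.7 CPM in the WT and 28.6, 31.9 and 31.3 CPM in the Ash1l+/- libraries, without overlap, at a log2 fold change of 0.29 (SE 0.14, adjusted p = 0.385, edgeR's quasi-likelihood test) with 6 libraries and 0.25 (SE 0.10, adjusted p = 0.0847) with 5. Rab3a, the most abundant of them, was at 444.7, 1010.5 and 462.7 CPM in the WT and at 445.7, 376.4 and 404.6 CPM in the Ash1l+/- libraries. Its groups overlapped, and WT replicate 2 held over 2-fold more than any other library. The log2 fold change of Rab3a was -0.64 (SE 0.35, adjusted p = 0.389) with 6 and -0.15 (SE 0.08, adjusted p = 0.199, edgeR's quasi-likelihood test) with 5 libraries. Rab3d, a Rab of secretory granules, was at 150.3, 150.8 and 156.5 CPM against 142.5, 140.0 and 141.4 CPM, with a log2 fold change of -0.12 (adjusted p = 0.275, edgeR) in 5 libraries, and WT replicate 2 was in place among the others. Rab3b (9.93 to 13.4 CPM in the 6 libraries) and Rab37 (32.0 to 48.5 CPM) overlapped between groups, with log2 fold changes of -0.11 and 0.02 in 5 libraries. Rab26, which links synaptic vesicles to autophagy, had 62 reads over all libraries and was not tested.

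Among the 15 tested Rabs of the endoplasmic reticulum and Golgi, Rab30 was higher and Rab1b and Rab34 were lower in the 5 libraries. Rab1b was at 206.9, 401.1 and 199.3 CPM in WT replicates 1, 2 and 3 and at 172.3, 145.1 and 152.9 CPM in Ash1l+/- replicates 1, 2 and 3. Every Ash1l+/- library lay below every WT library, and WT replicate 2 stood highest. The fitted log2 difference was -0.78 (SE 0.31, adjusted p = 0.385, edgeR's quasi-likelihood test) with 6 libraries and -0.37 (SE 0.08, adjusted p = 0.00385) with 5. Rab34, which acts at the Golgi and in the first steps of cilium assembly, was at 15.7, 25.2 and 13.2 CPM in the WT and 10.5, 10.9 and 9.69 CPM in the Ash1l+/- libraries, without overlap. The log2 fold change of Rab34 was -0.79 (SE 0.28, adjusted p = 0.385) with 6 libraries and -0.47 (SE 0.14, adjusted p = 0.0206, edgeR's quasi-likelihood test) with 5. Rab30, a Golgi Rab, was at 36.1, 33.5 and 44.3 CPM in the WT and 46.0, 49.7 and 56.3 CPM in the Ash1l+/- libraries, with WT replicate 3 just below the lowest Ash1l+/- value. Its log2 fold change was 0.41 (SE 0.17, adjusted p = 0.385) with 6 and 0.34 (SE 0.10, adjusted p = 0.0285, edgeR's quasi-likelihood test) with 5 libraries.

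The abundant members of this group did not pass. Rab6b was at 1397, 1087.5 and 1461 CPM in the WT and at 1390.4, 1335 and 1355 CPM in the Ash1l+/- libraries, a log2 fold change of -0.07 (SE 0.07, adjusted p = 0.509, edgeR's quasi-likelihood test) in 5 libraries. Rab6a was at 503.1, 286.2 and 561.1 CPM against 551.3, 594.5 and 612.5 CPM, and Rab1a at 219.2, 130.4 and 249.2 CPM against 248.8, 266.5 and 275.2 CPM, both with WT replicate 2 lowest and the groups otherwise overlapping. Their log2 fold changes in 5 libraries were 0.14 (adjusted p = 0.200) and 0.17 (adjusted p = 0.129, edgeR). For Rab2a (280.7 to 354.1 CPM in the 6 libraries) and Rab18 (82.8 to 164.0 CPM) the changes in 5 libraries were 0.01 and 0.11. The untested or weakly expressed members were Rab19 and Rab43, and Rab43 (0.224 to 0.961 CPM) shares 90.4% of its 50-base stretches with an overlapping gene model, Gm45140, which had 0 counts in every library; how reads of shared bases were counted is not known here.

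On early endosomes, 1 of 7 tested Rabs passed in the 5 libraries. Rab5a, which governs the fusion of early endosomes, was at 119.8, 4.78 and 130.6 CPM in WT replicates 1, 2 and 3 and at 138.7, 154.9 and 162.2 CPM in Ash1l+/- replicates 1, 2 and 3. WT replicate 2 thus held a small fraction of the reads of any other library, while the other WT values lay below all Ash1l+/- values. On the log2 scale the difference was 0.84 (SE 0.97, adjusted p = 0.614, edgeR's quasi-likelihood test) with 6 libraries and 0.28 (SE 0.08, adjusted p = 0.0203) with 5. Rab5c was at 120.5, 194.3 and 123.2 CPM in the WT and 117.5, 102.4 and 108.4 CPM in the Ash1l+/- libraries, which did not overlap, but its log2 fold change of -0.15 (SE 0.08, adjusted p = 0.183) in 5 libraries did not pass. The remaining early endosome Rabs, Rab5b, Rab20, Rab21, Rab22a and Rab31, ranged from -0.33 for Rab20 to 0.19 for Rab31.

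On recycling endosomes, Rab4a and Rab11b were lower and none of the 7 tested was higher. Rab11b, which returns receptors to the surface and is enriched in brain, was at 179.2, 312.2 and 177.4 CPM in the WT and at 150.3, 134.5 and 135.9 CPM in the Ash1l+/- libraries. The groups did not overlap, and WT replicates 1 and 3 were nearly equal. Its log2 fold change was -0.67 (SE 0.26, adjusted p = 0.385, edgeR's quasi-likelihood test) with 6 libraries and -0.34 (SE 0.08, adjusted p = 0.00426) with 5. Rab4a, which serves fast recycling from early endosomes, was at 66.9, 147.9 and 69.9 CPM in the WT and 59.1, 52.5 and 56.7 CPM in the Ash1l+/- libraries, again without overlap. Its log2 fold change was -0.76 (SE 0.34, adjusted p = 0.385) with 6 libraries and -0.28 (SE 0.08, adjusted p = 0.0210, edgeR's quasi-likelihood test) with 5. Rab11a was at 206.3, 325.6 and 220.7 CPM in the WT and at 211.2, 221.5 and 222.1 CPM in the Ash1l+/- libraries, which overlapped, with a log2 fold change of 0.03 in 5 libraries. A processed copy of Rab11b, Rab11b-ps2, had 270, 32 and 278 reads in the WT and 280, 230 and 240 reads in the Ash1l+/- libraries, and Rab11b shares 50-base stretches with this copy.

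Among the late endosome, lysosome and autophagy Rabs, Rab24 was lower and the other 5 did not pass. Rab24, an atypical Rab linked to autophagosome clearance, was at 19.9, 168.9 and 17.4 CPM in the WT and at 11.4, 14.2 and 15.0 CPM in the Ash1l+/- libraries. The groups did not overlap, and WT replicate 2 held many times the level of every other library. The change on the log2 scale was -2.34 (SE 0.94, adjusted p = 0.385, edgeR's quasi-likelihood test) with 6 libraries and -0.47 (SE 0.13, adjusted p = 0.0186) with 5. Rab24 shares 62.4% of its exon bases with Prelid1 on the other strand, and since the named library kit keeps no strand, reads in the shared part cannot be told apart. Prelid1 was at 228.4, 559.5 and 206.2 CPM in the WT and at 164.1, 170.1 and 153.1 CPM in the Ash1l+/- libraries, in the same order of groups. Rab7 (312.3 to 405.2 CPM in the 6 libraries) and Rab9b, a paralogue of the late endosome Rab Rab9 (41.2, 32.9 and 47.0 CPM in the WT, 48.7, 50.1 and 54.5 CPM in Ash1l+/-), had log2 fold changes of -0.08 and 0.21 in 5 libraries (adjusted p = 0.475 and 0.107, edgeR).

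Of the atypical Rabs, Rab40c, which joins a ubiquitin ligase through its SOCS box, was at 32.0, 62.2 and 31.1 CPM in the WT and at 23.9, 22.3 and 22.7 CPM in the Ash1l+/- libraries. The 3 Ash1l+/- values lay within a narrow range below all WT values. On the log2 scale the change came to -0.86 (SE 0.30, adjusted p = 0.385, edgeR's quasi-likelihood test) with 6 libraries and -0.45 (SE 0.10, adjusted p = 0.00409) with 5. None of the 3 lysosome-related organelle Rabs (Rab29, Rab32 and Rab38, all at 10.9 CPM or less in every library) and none of the 6 Rabs of Golgi-to-surface traffic and the cilium passed. The latter included Rab10 (88.3 to 179.3 CPM) and Rab8a and Rab8b (28.5 to 65.5 CPM), substrates of the kinase LRRK2, with log2 fold changes of 0.14, -0.02 and 0.22 in 5 libraries. Rab2b, named after its values were seen, had 223, 0 and 256 reads in the WT and 278, 216 and 248 in the Ash1l+/- libraries, so WT replicate 2 alone had none, which allows up to 3 reads. Rab2b shares 64.0% of its exon bases with genes on the other strand, chiefly Tox4, which was at 57.3 to 79.0 CPM in all 6 libraries.

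**Figure D2:**
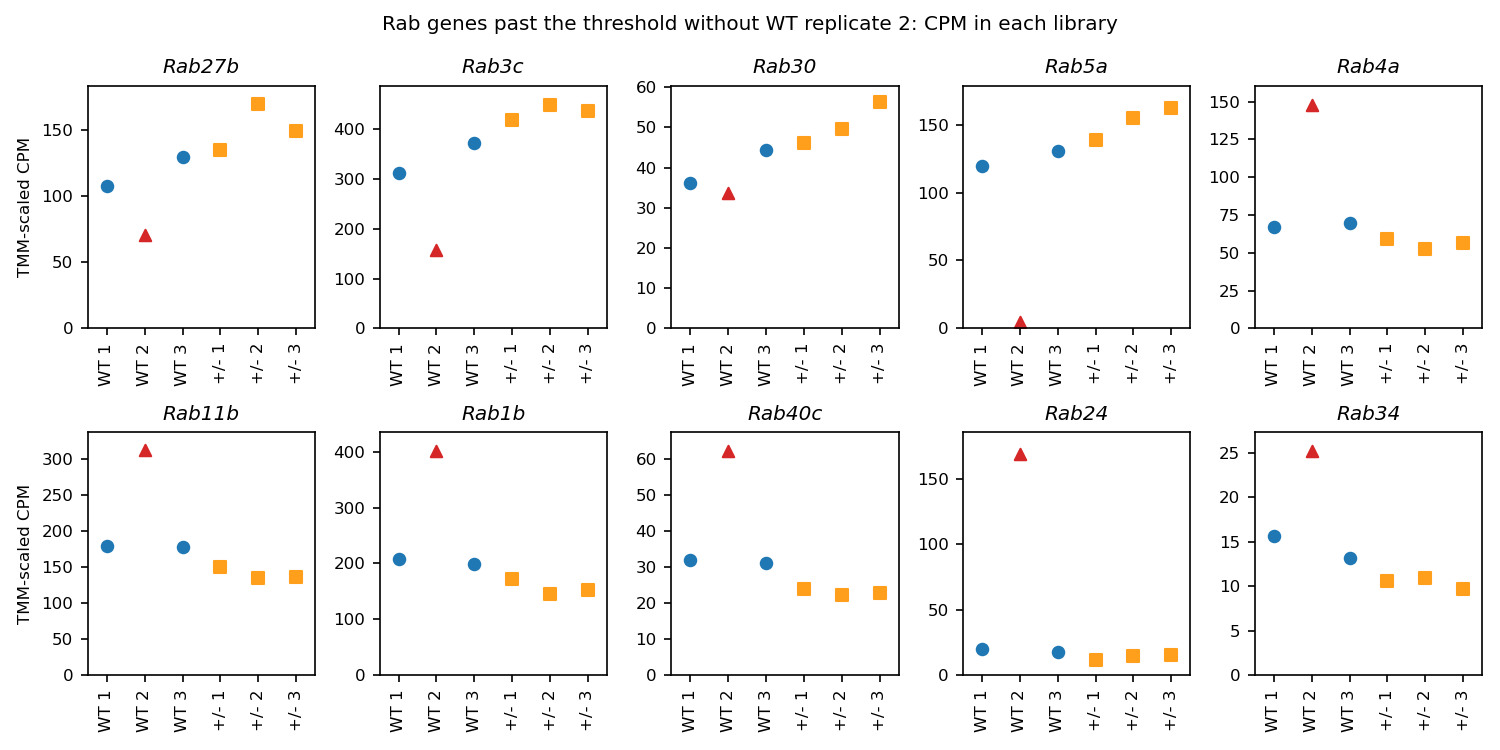
TMM-scaled CPM in each library of the 10 Rab genes past the threshold in the 5 libraries (circles WT replicates 1 and 3, triangle WT replicate 2, squares Ash1l+/-), each axis starting at 0. In every panel the 3 Ash1l+/- libraries lie on 1 side of all 3 WT libraries, and WT replicate 2 lies on the far side of the other WT libraries, at 4.78 CPM for Rab5a and 168.9 CPM for Rab24.

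The called genes included 1 member of several paralogue pairs, so the ratio of the paralogues was read within each library. These pairs were chosen after their values were seen, and the ratios are a description without a test. With 6 libraries, the groups did not overlap for 38.5% of all single genes tested. A share for ratios of other gene pairs was not computed, so a ratio without overlap cannot be read as particular to the Rabs. In the order of replicates 1, 2 and 3, the ratio of Rab1b to Rab1a per kb was 1.95, 6.37 and 1.66 for the WT libraries and 1.43, 1.13 and 1.15 for the Ash1l+/- libraries. Rab1b thus exceeded Rab1a in every library, by least in the Ash1l+/- ones. The ratio of Rab11b to Rab11a was 0.425, 0.470 and 0.393 in the WT and 0.348, 0.297 and 0.300 in the Ash1l+/- libraries, and here WT replicate 2 lay near the other WT libraries. Rab3a to Rab3c was 7.73, 34.8 and 6.71 in the WT and 5.76, 4.54 and 5.02 in the Ash1l+/- libraries. Rab5a to Rab5c was 0.414, 0.0103 and 0.441 in the WT and 0.491, 0.630 and 0.623 in the Ash1l+/- libraries. In each of these 4 pairs the groups did not overlap, and the Ash1l+/- libraries held relatively more of the paralogue with fewer codons ending in G or C in the stretch printed above. The groups also did not overlap for Rab6b to Rab6a (1.93 to 2.82 in the WT, 1.64 to 1.87 in Ash1l+/-), for Rab8b to Rab8a (0.882 to 1.26 against 1.36 to 1.45) and for Rab9b to Rab9 (0.384 to 0.673 against 0.732 to 0.783). Rab9b differs from the others in that the relatively higher paralogue has more G or C at the last codon positions of its whole coding sequence (50.2% against 43.1%). This holds for that measure only, since the longest transcript of Rab9b has less G or C than that of Rab9 (41.3% against 45.6%). Rab27b was also called, but its ratio to Rab27a (1.52, 1.10 and 1.83 against 1.71, 1.93 and 1.73) overlapped between the groups. The ratios of Rab2b to Rab2a and of Rab39b to Rab39 overlapped as well.

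**Figure D3:**
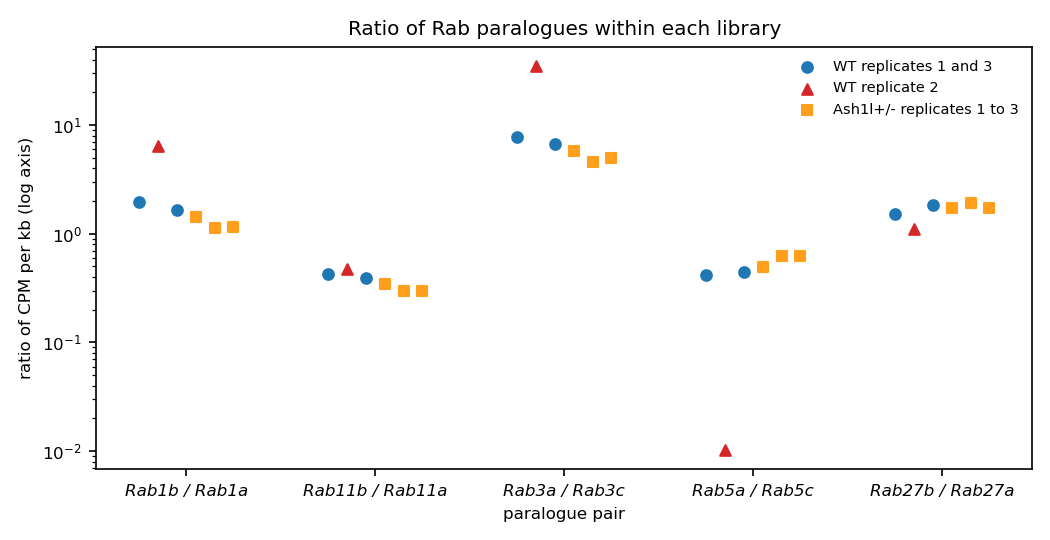
Ratio of the levels per kb of 2 Rab paralogues within each library (log axis), for 5 pairs. The Ash1l+/- libraries (squares) lie below all WT libraries for Rab1b to Rab1a, Rab11b to Rab11a and Rab3a to Rab3c and above them for Rab5a to Rab5c, and they overlap them for Rab27b to Rab27a.

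The direction of the Rab changes went with base composition and transcript length. The 4 Rab genes that were higher in the 5 libraries had a GC content of 37.9% to 46.7% in their longest transcript and gene lengths of 5270 to 12049 bases, and the 6 that were lower had 48.1% to 59.5% GC and lengths of 1757 to 6109 bases. Of the 17 tested Rab genes under 45% GC, 16 had a log2 fold change above 0, of the 18 between 45% and 50% 12 did, and of the 18 at 50% or over 3 did. The same was seen over all genes: 80.8% lay above 0 under 45% GC, 62.6% between, and 26.3% at 50% or over. Spearman's rho between fold change and GC in the 5 libraries was -0.57 across the 53 Rab genes and -0.55 across all genes tested, and with length it was 0.33 and 0.28. With 6 libraries rho with GC was -0.50 and -0.48. These are descriptions across genes that share their libraries, and genes are not independent replicates.

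Removing each library's trend on GC and length left 2 Rab genes past the threshold in the 5 libraries, beside 7.04% of all genes. Without Ash1l+/- replicate 1 as well the count was 4 (1 higher, 3 lower), beside 1354 of 16159 genes. The 2 genes of the 5 libraries were Rab11b and Rab28, both lower in Ash1l+/-. Rab11b kept its size, at -0.42 (SE 0.07, adjusted p = 0.001, edgeR's quasi-likelihood test). Rab28, a Rab of photoreceptor and other cilia, was at 42.3, 36.1 and 44.6 CPM in the WT and 40.4, 38.5 and 38.0 CPM in the Ash1l+/- libraries; its log2 fold change was -0.15 (SE 0.09, adjusted p = 0.239) before and -0.43 (SE 0.09, adjusted p = 0.00566, edgeR's quasi-likelihood test) after the removal. By its longest transcript, Rab28 has the lowest GC content of the tested Rab genes (36.8%) and was the exception of the lowest GC class above. Its longest coding transcript has 45.4% GC, so its place in that class and the size of its change depend on the transcript taken. Rab3c, Rab1b, Rab27b and Rab30 came to 0.04, -0.05, -0.02 and -0.02, and Rab5a, Rab34, Rab24, Rab4a and Rab40c to 0.18, -0.13, -0.24, -0.12 and -0.27, none of them past the threshold. With GC taken from the longest coding transcript instead, Rab1b was at -0.25 (adjusted p = 0.0343, edgeR's quasi-likelihood test) and past the threshold, and Rab28 was at -0.28 (adjusted p = 0.0414). The median of the Rab genes was then -0.03, beside -0.004 for all genes. In these libraries the trends and the genotype cannot be told apart.

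**Figure D4:**
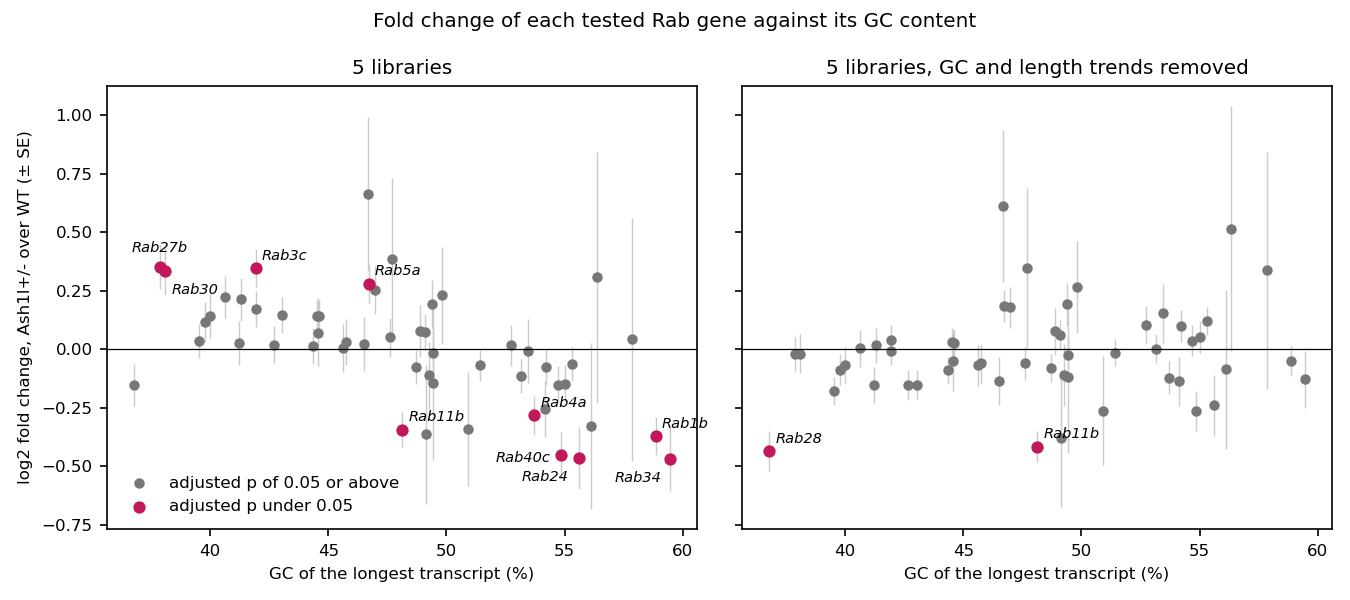
Log2 fold change (Ash1l+/- over WT, bars ± SE) of each of the 53 tested Rab genes against the GC content of its longest transcript, in the 5 libraries (left) and after removal of GC and length trends (right). Rab genes past the threshold are named: on the left the higher ones have low GC content and the lower ones high GC content, and on the right only Rab11b and Rab28 are past the threshold.

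The genes that act on Rabs were read from the same fits. Of 111 listed partners, 106 were tested. With 6 libraries 0 passed by edgeR's quasi-likelihood test (12 at an unadjusted p under 0.05, 0 by DESeq2, and 37 by limma-voom with quality weights, which called 4179 of all genes). With 5 libraries 30 passed, 19 higher and 11 lower, beside 19.8% of all genes (9.39% higher and 10.4% lower). Unlike for the Rab genes, the share of higher partners in this fit was above that background, and the share of lower ones was close to it. No set test was run. Leaving out Ash1l+/- replicate 2 as well gave 16, beside 1855 of 16226 genes, and leaving out Ash1l+/- replicate 3 gave 19, beside 2120 of 16266. The balance of directions in the 5 libraries moved with the trend settings. With the GC trend alone removed, 10 partners were higher and 3 lower, beside 743 and 847 of 16395 genes. With the length trend alone removed, 7 were higher and 12 lower, beside 900 and 1465. With both removed, 4 were higher and 2 lower, beside 431 and 723. Among 8 genes of prenylation, GDP dissociation and membrane insertion, Rabac1, whose product binds prenylated Rabs at the Golgi, was at 351.0, 2196 and 353.4 CPM in the WT and at 223.6, 213.4 and 202.9 CPM in the Ash1l+/- libraries. WT replicate 2 was several times higher than any other library, and the other WT values lay well above the Ash1l+/- ones. The log2 fold change of Rabac1 was -2.18 (SE 0.78, adjusted p = 0.385) with 6 libraries, -0.72 (SE 0.07, adjusted p = 7.46e-06) with 5 and, with the trends removed, -0.36 (SE 0.06, adjusted p = 0.00159, edgeR's quasi-likelihood test). Chm, the Rab escort protein whose loss causes choroideremia, was at 33.0, 12.6 and 40.7 CPM in the WT and 44.6, 50.6 and 50.1 CPM in the Ash1l+/- libraries, with a log2 fold change of 0.40 (SE 0.10, adjusted p = 0.00971, edgeR) with 5.

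The 33 tested exchange factors held 4 higher and 3 lower genes in the 5 libraries, where 9.39% of all genes were higher and 10.4% lower. Of those past the threshold, the largest log2 fold changes were those of Dennd5b (0.53), Dennd4a (0.37) and Dennd1b (0.34), members of the DENN-domain family, and in the other direction Hps4 (-0.51), of the complex that loads Rab32 and Rab38, Mon1a (-0.33), of the complex that loads Rab7, and Dennd4b (-0.30). The 25 GTPase-activating proteins held 3 higher genes, Rabgap1l (0.38), Tbc1d15 (0.34) and Evi5 (0.33), and 5 lower ones, of which Sgsm3 (-0.44), Tbc1d10b (-0.35) and Tbc1d22b (-0.32) changed most. Among 37 effectors, 10 were higher and 2 lower, beside the same 9.39% and 10.4% of all genes. Bicd1 (0.54), a dynein adaptor that binds Rab6, Eea1 (0.53), the early endosome tether of Rab5, and Gcc2 (0.44), a Golgi golgin, were the largest rises among those past the threshold. Mical1 (-0.34), a Rab-activated enzyme that disassembles actin filaments, and Rab11fip5 (-0.28), a Rab11 partner, were the falls. With 6 libraries Mical1 had the other sign, at 0.15 (adjusted p = 0.894, edgeR's quasi-likelihood test). It was at 9.19 CPM in WT replicate 2 and at 50.8 to 69.5 CPM in the other libraries. Of the 3 Rab kinases and phosphatase, Lrrk2, whose kinase phosphorylates Rab8a and Rab10, was higher: 53.6, 14.7 and 51.7 CPM in the WT and 68.4, 71.7 and 71.9 CPM in Ash1l+/-, a log2 fold change of 0.43 (SE 0.08, adjusted p = 0.00132, edgeR's quasi-likelihood test). With the trends removed, 6 partners passed, beside 7.04% of all genes: Rab11fip3 (0.25), Bicd2 (0.29), Golga2 (0.33) and Dennd2a (0.37) higher, and Rabac1 and Dennd1a (-0.60) lower. That count was 4 without Ash1l+/- replicate 2 as well, beside 681 of 16226 genes. Of the 6, only Rabac1 had also passed in the 5 libraries before the removal. Rab11fip3, Bicd2, Golga2, Dennd2a and Dennd1a were then at 0.002, 0.207, 0.152, 0.237 and -0.175. Their adjusted p were 0.992, 0.0779, 0.181, 0.157 and 0.319 (edgeR's quasi-likelihood test).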

How the data were processed

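RNA was sequenced from 6 mouse dorsal root ganglion libraries, grouped by their titles. The authors deposited raw read counts per gene, and FPKM of the same genes, which rescale these counts by gene length and an effective library size (0.75 of the count total in WT replicate 2, 1.021 to 1.041 in the others) and served as an alternative scale. HISAT2 2.0.5, featureCounts 1.5.0-p3 and GRCm38 are named in the submitters' processing notes, which as used here give no settings. Per the labels' protocols a NEBNext Ultra RNA kit was used.

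All genes kept by filterByExpr were fitted with edgeR 4.0.16 (R 4.3.3; quasi-likelihood test, TMM scaling) on genotype alone. P-values were adjusted over the whole table (Benjamini-Hochberg, threshold 0.05), and Rab values were read from that fit. SEs were derived from the fold change and its F statistic. GC and length trends were loess curves per library (span 0.3) entered as offsets, with GC from GENCODE transcripts for 99.8% of genes. The code was tested on simulated data. Gene models sharing 50-base stretches or exons with another gene were counted.

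The members, role lists, partner lists and marker lists were chosen with earlier results of these data known, as was the comparison without WT replicate 2. Named with values were all regulated exocytosis Rabs, the 10 highest per kb, all called Rabs, the 5 smallest p in each direction and at most 3 called partners per list and direction; Rab28, Rab2b, Rab8a, Rab8b, Rab10, Prelid1, Tox4, the paralogue pairs and the partners called with the trends removed were added after their values were seen. Marker lists, with results in the text, were sensory neuron, satellite glia, Schwann cell, fibroblast, endothelial, macrophage, neutrophil, erythrocyte, skeletal muscle and central nervous system.

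Alternatives were RLE factors, library totals, no count filter, a CPM of at least 1 in 3 libraries, DESeq2 1.42.0, limma 3.58.1 (voom with and without quality weights, and on log2(FPKM + 1) and log2(FPKM + 0.1)), trend removal, a replicate block and leaving out each library.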

Additional observations from a re-analysis of the deposited data

How the results depend on the processing

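With 6 libraries, the count of Rab genes past the threshold was 0 under every alternative but 2. Limma-voom with quality weights called 10 (4 higher, 6 lower), beside 4179 of 16032 genes. Leaving out 1 library gave 0 to 10, the 10 arising without WT replicate 2, beside 3252 of 16395 genes. For the partners these were 37 and 0 to 30. With 5 libraries, the 10 calls (4 higher, 6 lower) became 6 (1 higher, 5 lower) with limma on either log2 FPKM scale, 2 (0 higher, 2 lower) with GC and length trends removed, 4 with the GC trend alone removed, 4 with the length trend alone removed and 3 with GC taken from the longest coding transcript. Leaving out 1 further library gave 2 (without WT replicate 1) to 13 (without Ash1l+/- replicate 1), with 6 without Ash1l+/- replicate 2, and the lone WT library left in 2 of these fits is assumed to vary like the Ash1l+/- ones. For the partners, the 30 calls became 9 and 10 on the FPKM scales with pseudocounts of 1 and 0.1, 6, 13, 19 and 8 with the same 4 trend settings, and 5 (without WT replicate 1) to 40 without 1 library, with 16 without Ash1l+/- replicate 2 and 19 without replicate 3. The background moved as well: of 16395 genes, 3252 were called with 5 libraries, and 1528 and 1587 on the 2 FPKM scales. It was 1154, 1590, 2365 and 1066 with the 4 trend settings. Without Ash1l+/- replicates 1, 2 and 3 in turn it was 4198 of 16159, 1855 of 16226 and 2120 of 16266 genes. The deviations of same-numbered libraries from their group means had an r of 0.000517, -0.0317 and 0.0378. The WT mean included WT replicate 2, which stood apart, so these values cannot show whether same-numbered libraries vary together. No such r was computed without it. A replicate block gave 0 Rab calls with 6 libraries and 12 (6 higher, 6 lower) with 5, beside 3982 of all genes.

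With trends removed, 4 Rab genes (1 higher, 3 lower) were called without Ash1l+/- replicate 1 as well, beside 1354 of 16159 genes. Without Ash1l+/- replicate 2 there were 2, beside 681 of 16226, and without replicate 3 there were 2, beside 823 of 16266. Over the 53 Rab genes, 10 had another sign without WT replicate 2 than with it, and 21 had another sign in the 5 libraries once trends were removed. Of these, only Rab27b and Rab30 had been past the threshold. Signs under each alternative were read only for a list picked for its changes. With 6 libraries it held the 5 smallest p in each direction, and with 5 libraries these, the called genes and Rab28. Within this list the sign turned only with trends removed. With 6 libraries Rab27b turned to -0.13, Rab30 to -0.31 and Rab9b to -0.02. With 5, Rab27b and Rab30 turned to -0.02 each, and to -0.06 and -0.05 with GC of the longest coding transcript. Rab11b was called in all 18 alternatives of the 5 libraries, Rab1b in 16, Rab40c in 15, Rab3c in 13 and the other called genes in 9 to 12, and Rab28 in 3, all with the GC trend removed. The median of the Rab genes ran from -0.135 to 0.162 over the alternatives with 6 libraries, 5 of 17 below 0, and from -0.048 to 0.073 with 5, 4 of 18 below 0. Library totals moved the median of all genes by 0.131 with 6 libraries. The 10 highest Rabs were the same by deposited FPKM. Causes were not tested. The 6 untested Rab genes had 1 to 62 counts over all libraries, and whether depth or absent expression lies behind this was not tested. Rab4b and Rab43, at under 1 CPM, share 80.3% and 90.4% of their 50-base stretches with gene models at 0 counts, and the part of this in their levels was not tested.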
